A study of Mus musculus with 3 samples.

Results

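Junctions of class switch recombination were compared between prey regions within activated B cells homozygous for the DNA-PKcs PQR allele. The members are the 2 PQR/PQR libraries among the 3 libraries of the series, with 1681 junctions in replicate 1 and 472 junctions in replicate 2. They were chosen by the genotype label alone, and each junction was placed in Sμ, Sγ1, Sε, the remainder of the heavy chain locus (other IgH) or outside it (non-IgH) by the deposited count sheets. In each library the bait was the 5′ part of Sμ, from which a primer read into the joined sequence, the prey.

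Both PQR/PQR libraries came from splenic CD43- B cells of strain 129 mice with preassembled IgH and IgK loci, stimulated over 4 days in culture with 1 ng/mL of anti-CD40 plus 20 ng/mL of IL-4. DNA-PKcs-/- replicate 5, with 842 junctions, had the same cells, loci, strain and culture and serves as the other genotype. Nothing in the labels says that the PQR/PQR libraries are from separate mice, so the spread between them may be technical. Wild-type cells are not analysed here, and the purity of the sorted cells cannot be checked from junctions.

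In class switching, the enzyme AID deaminates cytosines in transcribed S regions, and the resulting breaks in Sμ and a downstream S region are joined, which puts a new constant gene behind the variable exon. DNA-PKcs is a kinase that acts in classical end joining, the pathway that joins ends directly or over very short microhomology (MH, bases shared by both ends). Alternative end joining is known for longer MH. The PQR allele alters a cluster of phosphorylation sites in DNA-PKcs and leaves the protein present. Anti-CD40 with IL-4 directs switching to IgG1 and IgE, so Sγ1 and Sε are the downstream targets, while a prey in Sμ itself is a join within the bait's own S region.

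The joined sequences show what was classified. The nested primer is shown because it fixes the bait end and strand, and its exact letters stand in 757 of 789 listed Sε reads of replicate 1. Below it is the junction with the longest MH in each S region and replicate with a list. MH is in capitals between 25 bases of bait before it and 25 bases of prey after it, 5′ to 3′ as read. All preys are on the − strand of mm9 chromosome 12, the deletional orientation. Among equally long MH the lowest prey coordinate was taken. No list of Sμ junctions was used for replicate 1.
nested primer: cacacaaagactctggacctc
Sμ replicate 2: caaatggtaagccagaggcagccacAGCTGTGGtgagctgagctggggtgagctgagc
Sγ1 replicate 1: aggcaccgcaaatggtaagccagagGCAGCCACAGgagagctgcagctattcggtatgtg
Sγ1 replicate 2: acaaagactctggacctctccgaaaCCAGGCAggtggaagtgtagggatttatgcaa
Sε replicate 1: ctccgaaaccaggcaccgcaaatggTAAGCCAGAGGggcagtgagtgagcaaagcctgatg
Sε replicate 2: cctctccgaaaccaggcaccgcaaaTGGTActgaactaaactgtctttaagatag

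The Sμ junction joined the bait at position 114669187 to a prey at 114667760 over 8 bp. The Sγ1 junctions joined 114669193 to 114568049 over 10 bp in replicate 1 and 114669223 to 114571325 over 7 bp in replicate 2. The Sε junctions joined 114669202 to 114512759 over 11 bp in replicate 1 and 114669211 to 114513200 over 5 bp in replicate 2. The last was 1 of 5 Sε junctions with that length. Within the S regions, the longest listed MH therefore stayed at or below 11 bp. Among MH of 4 bp or more, the string GCTG was the most frequent in Sε, at 11 of 53 listed junctions in replicate 1 and 2 of 14 in replicate 2, where AGGC also occurred 2 times. In Sγ1 no string occurred more than 2 times among 25 such junctions in replicate 1 or more than 1 time among 8 in replicate 2. In Sμ of replicate 2 the most frequent string was AGCCA, with 2 of 14.

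The prey side differed in sequence between the S regions. Counted on both strands in the first 50 prey bases, AGCT, a hotspot of AID, stood in 79.0% of 704 Sε preys and 62.3% of 239 Sγ1 preys of replicate 1. In replicate 2 it stood in 70.7% of 92 Sμ preys, 57.1% of 63 Sγ1 preys and 81.4% of 118 Sε preys. The longer string GAGCT, which contains AGCT, stood in 33.5% of Sγ1 and 66.3% of Sε preys in replicate 1, and in 63.0% of Sμ, 27.0% of Sγ1 and 71.2% of Sε preys in replicate 2. GGGGT was frequent in Sμ preys of replicate 2, at 45.7%, against 14.3% in Sγ1 and 6.78% in Sε. Non-IgH preys held AGCT in 32.0% of 75 in replicate 1 and 25% of 48 in replicate 2. Their mean GC content was 47.0% and 46.5%, while that of S region preys was 52.7% to 55.5% over both replicates. The joined preys of the S regions thus differed in these strings, and these shares are given as descriptions with no test. The unjoined sequence of the S regions was not compared.

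Region sizes set the precision of every contrast. Replicate 1 had 468 Sμ, 272 Sγ1, 794 Sε, 25 other IgH and 122 non-IgH junctions. Replicate 2 had 122 Sμ, 77 Sγ1, 144 Sε, 6 other IgH and 123 non-IgH junctions. Non-IgH preys were therefore 7.26% of replicate 1 and 26.1% of replicate 2, and Sε was 47.2% and 30.5%. Other IgH rests on few junctions. Of the 25 in replicate 1, 6 lay beyond Sε, 8 between Sγ1 and Sε, 4 between Sμ and Sγ1 and 7 upstream of Sμ. Of the 6 in replicate 2, 4 lay beyond Sε. The replicates were read in different sequencing runs, so run and replicate cannot be told apart. They shared 3 identical Sε junctions, of 144 in replicate 2, and 0 in Sγ1, other IgH and non-IgH.

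The PQR/PQR pool less both replicates holds 2014 further junctions, but it was not a further library of the same make. All 2014 were on chromosome 12, although replicates 1 and 2 had only 14 of 122 and 8 of 123 non-IgH junctions there. It held 1770 Sγ1, 198 Sμ, 21 Sε, 9 other IgH and 16 non-IgH junctions. Every listed Sε (21), other IgH (9) and non-IgH (15) junction carried the run and the first 6 bases of replicate 1 or replicate 2, bases that 0 of 122 listed Sε reads of DNA-PKcs-/- replicate 5 shared with replicate 1 in the same run. Of its 21 Sε junctions, 1 had a bait alignment that begins at the primer and 14 had one inside Sγ1, against 927 of 933 that begin at the primer in the replicates. Its other listed junctions mostly did begin at the primer, at 9 of 9 in other IgH and 11 of 15 in non-IgH, with 0 baits in Sγ1. Some of its Sγ1 junctions also lay where the replicates had none. Of the 1770, 373 (21.1%) fell in the longest stretch of Sγ1 with no junction of either replicate, chr12:114574914-114576268 of mm9. That stretch of 1355 bp was picked from the replicates for being empty, so the difference there was not tested. The pool less both is therefore given only as what remains of the authors' pooled counts after both replicates are subtracted. Its Sε, which was mostly not joined to the primer's end, is not set against the replicates. The baits of its Sμ and Sγ1 junctions are not analysed here.

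A contrast between regions was read as the percentage of the first region minus that of the second, within 1 library. The 10 pairs of 5 regions were compared in 6 shares, each in a Fisher's exact test (two-sided) per replicate, with Benjamini-Hochberg adjustment over all 120 tests. A contrast held when both replicates gave an adjusted p under 0.05 and the same sign. Of 60 contrasts, 17 held, 7 passed in 1 replicate only, and 40 had the same direction in both. Each test compares junctions within a library and takes them as independent. With 2 paired libraries, a test over libraries could not give an exact p below 0.5.

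**Figure D1:**
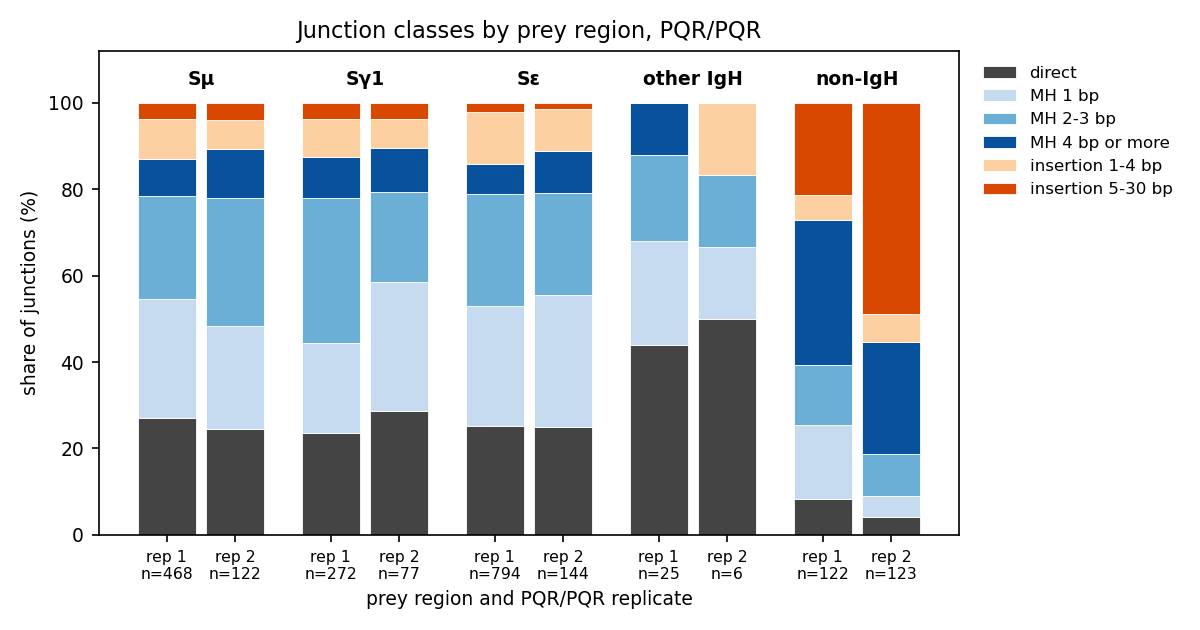
Stacked bars give the share of direct, MH and insertion junctions (y axis, %) in each prey region for PQR/PQR replicates 1 and 2 (x axis, with the number of junctions). The 6 bars of the S regions have 23.5% to 28.6% direct joins, while non-IgH has 8.20% and 4.07%.

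The 3 S regions had nearly the same share of direct joins, those with neither MH nor inserted bases. In replicate 1, 27.1% of Sμ, 23.5% of Sγ1 and 25.2% of Sε junctions were direct, with Wilson 95% intervals of 23.3% to 31.3%, 18.9% to 28.9% and 22.3% to 28.3%. In replicate 2 the direct shares were 24.6% in Sμ, 28.6% in Sγ1 and 25% in Sε. Sγ1 was thus lowest in replicate 1 and highest in replicate 2. None of the 3 contrasts passed in either replicate by Fisher's exact test, at an unadjusted p below 0.05 as well as after adjustment. The Sμ minus Sγ1 difference was 3.61 points in replicate 1, with a Newcombe 95% interval from -3.0 to 9.88. It was -3.98 points in replicate 2, with an interval from -16.8 to 8.20. The Sμ minus Sε difference was 1.95 points in replicate 1 (interval -3.0 to 7.05) and -0.410 points in replicate 2 (interval -10.6 to 10.1). At this depth, differences within these intervals are not excluded.

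MH was used by about the same share of junctions in each S region. The MH share was 59.8% in Sμ, 64.0% in Sγ1 and 60.6% in Sε of replicate 1. It was 64.8%, 61.0% and 63.9% in the same order in replicate 2. MH of 4 bp or more made up 8.55% of Sμ, 9.56% of Sγ1 and 6.80% of Sε junctions in replicate 1. In replicate 2 it made up 11.5%, 10.4% and 9.72%. Sε was lowest in both replicates, but the Sγ1 minus Sε difference was 2.76 points (interval -0.790 to 7.12, adjusted p = 0.313) in replicate 1 and 0.667 points (interval -7.11 to 10.3, adjusted p = 1 by Fisher's exact test) in replicate 2. Among MH junctions alone, the long ones were 14.3% in Sμ, 14.9% in Sγ1 and 11.2% in Sε of replicate 1, and 17.7%, 17.0% and 15.2% in replicate 2. No MH contrast among S regions passed in either replicate. For the MH share, the Sμ minus Sγ1 interval in replicate 2 ran from -9.70 to 17.4 points.

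Shorter MH was described with no test. MH of 2 to 3 bp stood in 33.5% of Sγ1 junctions of replicate 1, above 23.9% in Sμ and 26.1% in Sε. In replicate 2 Sγ1 was the lowest of the 3, at 20.8%, with 29.5% in Sμ and 23.6% in Sε. MH of 10 bp or more was rare in each S region. Replicate 1 had 3 of 468 in Sμ, 2 of 272 in Sγ1 and 2 of 794 in Sε, and replicate 2 had 0 of 122, 0 of 77 and 0 of 144. Such a 0 allows a share of up to 2.46% in Sμ, 3.90% in Sγ1 and 2.08% in Sε.

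Insertion shares were about as close to each other. In replicate 1, 13.0% of Sμ, 12.5% of Sγ1 and 14.2% of Sε junctions had unaligned bases between bait and prey. In replicate 2 the insertion shares were 10.7%, 10.4% and 11.1%. The contrasts ran the same way in both replicates, with Sε highest and Sγ1 lowest, but were at most 1.73 points in size and none passed. Their intervals were wide, from -9.53 to 8.66 points for Sμ minus Sγ1 in replicate 2, and differences within them are not excluded. Insertion lengths were described with no test. Insertions of 5 bp or more were 29.5% of the 61 Sμ, 29.4% of the 34 Sγ1 and 15.0% of the 113 Sε insertions in replicate 1. In replicate 2 they were 5 of 13 in Sμ, 3 of 8 in Sγ1 and 2 of 16 in Sε. Sε insertions were thus the shortest in both replicates, on small numbers in replicate 2.

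Over the 5 junction classes and the 3 S region pairs, 0 of 15 contrasts passed in either replicate by Fisher's exact test, and 0 did so at an unadjusted p below 0.05 or in the exact test stratified by replicate. The largest of these differences in either replicate was 4.14 points. The pool less both had, by subtraction, direct shares of 23.2% in 198 Sμ and 23.5% in 1770 Sγ1 junctions. Its MH shares were 57.6% in Sμ and 63.4% in Sγ1. Its Sμ and Sγ1 lay further apart in MH of 4 bp or more, at 5.56% and 11.8%, a difference of -6.20 points (adjusted p = 0.0731, Fisher's exact test). Its insertion shares were 19.2% in Sμ and 13.1% in Sγ1, a difference of 6.08 points (adjusted p = 0.159, Fisher's exact test).

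**Figure D2:**
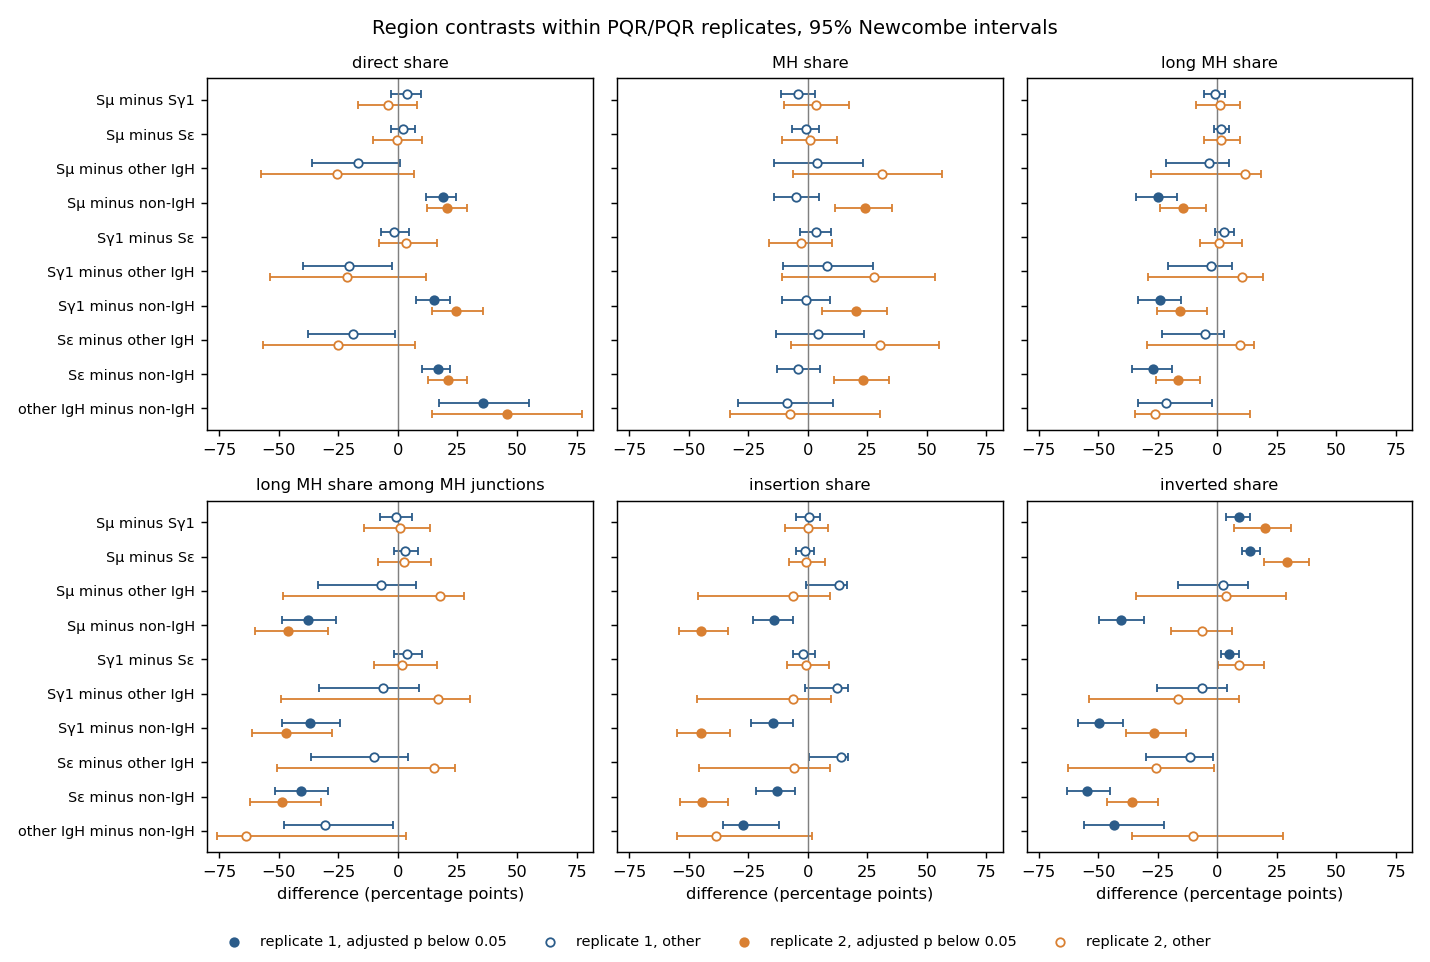
Each panel gives 1 share, with the difference between 2 regions in percentage points (x axis) for the 10 pairs of regions (y axis). Points are PQR/PQR replicates with Newcombe 95% intervals, filled where the adjusted p is below 0.05. Among the S region pairs (Sμ minus Sγ1, Sμ minus Sε and Sγ1 minus Sε), filled points stand only in the inverted panel.

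Orientation was the one measure in which contrasts between the S regions held. A prey on the + strand is inverted relative to the deletional − strand, the orientation that yields a switched locus. In replicate 1, 18.6% of Sμ junctions were inverted (interval 15.3% to 22.4%), followed by 9.56% of Sγ1 (6.61% to 13.6%) and 4.66% of Sε (3.40% to 6.36%). In replicate 2, 36.9% of Sμ (28.8% to 45.7%), 16.9% of Sγ1 (10.1% to 26.8%) and 7.64% of Sε (4.32% to 13.2%) were inverted. The order Sμ, Sγ1, Sε was the same in both replicates and is also their order of distance from the bait. The level differed, and the Sμ intervals of the replicates did not overlap.

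The Sμ minus Sγ1 difference held, at 9.03 points in replicate 1 (adjusted p = 0.00339) and 20.0 points in replicate 2 (adjusted p = 0.00807 by Fisher's exact test). The Sμ minus Sε difference held, at 13.9 points in replicate 1 (adjusted p = 1.11e-13) and 29.2 points in replicate 2 (adjusted p = 3.47e-08 by Fisher's exact test). The Sγ1 minus Sε difference passed in replicate 1 only, at 4.90 points (adjusted p = 0.0142 by Fisher's exact test). In replicate 2 it was 9.24 points with an interval from 0.529 to 19.7 (adjusted p = 0.111), and the exact test stratified by replicate gave an adjusted p of 0.00193. The pool less both had 8.08% of Sμ and 3.56% of Sγ1 junctions inverted. That difference ran the same way at 4.52 points but did not pass (adjusted p = 0.0731 by Fisher's exact test). The pool less both was not a further library of the same make, so this is no check by a further replicate.

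**Figure D3:**
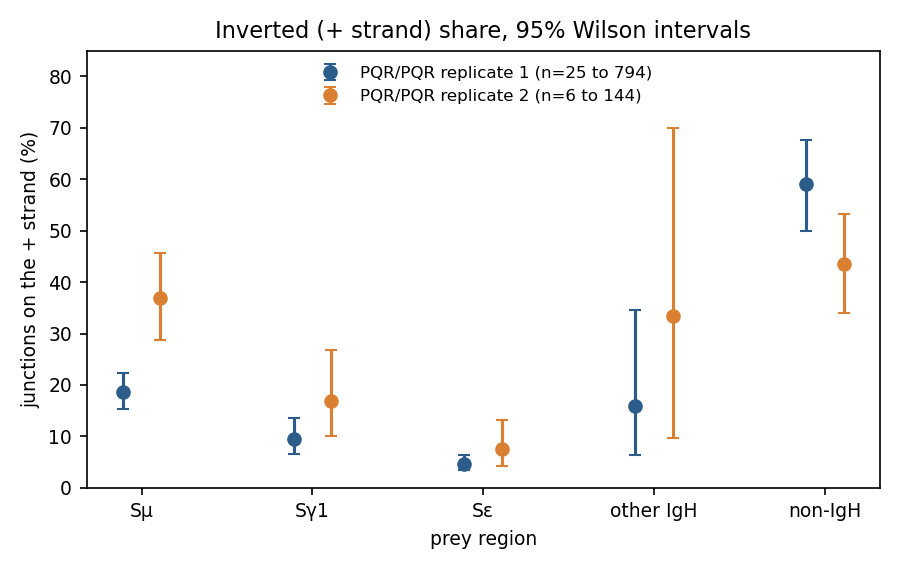
Points give the share of junctions on the + strand (y axis, %) by prey region (x axis) in PQR/PQR replicates 1 and 2, with Wilson 95% intervals. The share falls over Sμ, Sγ1 and Sε in both replicates, with replicate 2 higher in each of the 3.

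The inverted Sμ junctions also differed in class from the deletional ones, a comparison chosen after the data were seen. In replicate 1, MH of 4 bp or more was found in 20 of 87 inverted Sμ junctions (23%) and 20 of 381 deletional ones (5.25%). That difference passed (adjusted p = 4.98e-05, Fisher's exact test over 24 tests). In replicate 2 it was 8 of 45 inverted (17.8%) and 6 of 77 deletional (7.79%), the same direction without passing (adjusted p = 0.549, Fisher's exact test). Direct joins were fewer among inverted Sμ junctions, at 17.2% inverted and 29.4% deletional in replicate 1, and at 11.1% inverted and 32.5% deletional in replicate 2. Neither passed alone (adjusted p = 0.183 and 0.107, Fisher's exact test). In the exact test stratified by replicate, adjusted over 12 tests, both passed, with p = 1.32e-05 for long MH and 0.00378 for direct joins.

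In Sγ1 and Sε no class differed between inverted and deletional junctions in either replicate. The inverted junctions there were few, with 26 and 13 in Sγ1 and 37 and 11 in Sε in replicates 1 and 2. Whether Sμ differs from Sγ1 or Sε in this was not tested. When deletional junctions alone were compared between IgH regions, 0 of 30 contrasts held.

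**Figure D4:**
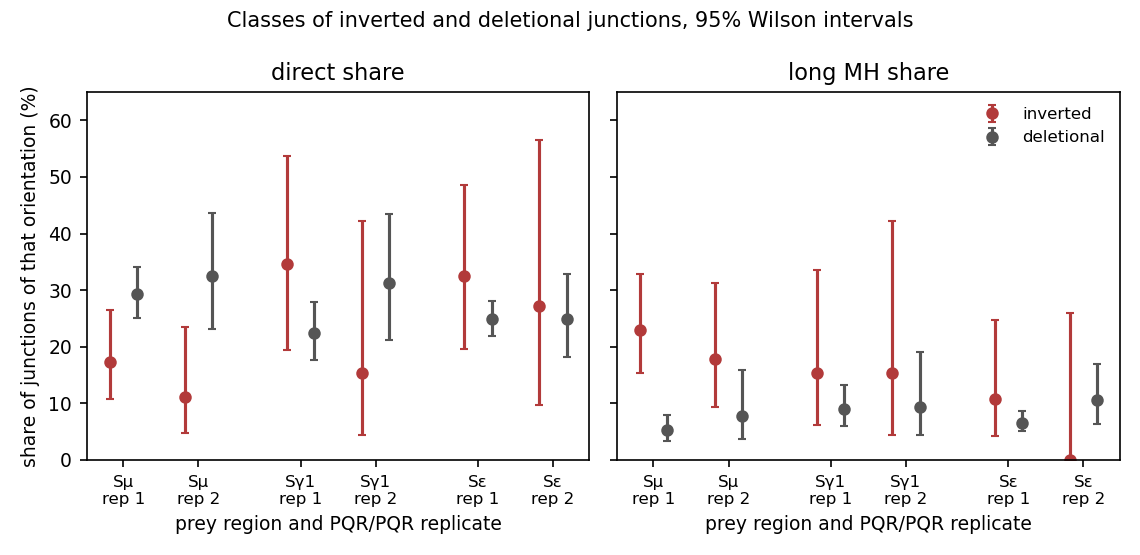
Points give the direct share (left) and the share of MH of 4 bp or more (right) among inverted and among deletional junctions (y axis, %) for each S region and PQR/PQR replicate (x axis), with Wilson 95% intervals. In Sμ, inverted junctions have fewer direct joins and more long MH in both replicates, with intervals apart only for long MH in replicate 1.

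Other IgH preys had the highest direct share in both replicates, on few junctions. It was 11 of 25 (44.0%) in replicate 1 and 3 of 6 in replicate 2. In the pool less both it was 2 of 9 (22.2%), not above the 23.2% of Sμ or the 23.5% of Sγ1 there. The Sγ1 minus other IgH difference was -20.5 points in replicate 1 (adjusted p = 0.0887) and -21.4 points in replicate 2 (adjusted p = 0.591 by Fisher's exact test). The Sμ and Sε contrasts had the same sign, and none of the 3 passed in either replicate. In the exact test stratified by replicate, the Sγ1 and Sε contrasts passed with adjusted p = 0.0433 and 0.0459, and the Sμ contrast did not (adjusted p = 0.0824). No insertion was seen in 0 of 25 other IgH junctions of replicate 1, which allows a share of up to 12.0%. Of the 6 in replicate 2, 1 had an insertion. The inverted share of other IgH was 4 of 25 (16.0%) in replicate 1 and 2 of 6 (33.3%) in replicate 2. Against other IgH, only the direct contrast with non-IgH held in both replicates. In the exact test stratified by replicate, other IgH minus non-IgH also passed for the insertion share (adjusted p = 0.000724) and long MH (0.025). It passed in that exact test too for long MH among MH junctions (adjusted p = 0.0335) and for the + strand share (0.000917). Sε minus other IgH passed there for the inverted share (adjusted p = 0.0172 in the same exact test).

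Non-IgH preys stood apart from the S regions in most classes of both replicates, and 15 of the 17 contrasts that held involve them. Of these 15, 2 are contrasts in the + strand share, which does not measure inversion for preys on other chromosomes. Direct joins were 8.20% in replicate 1 and 4.07% in replicate 2. The Sμ minus non-IgH difference was 18.9 points (adjusted p = 1.91e-05) in replicate 1 and 20.5 points (adjusted p = 1.62e-05, Fisher's exact test) in replicate 2. The contrasts with Sγ1 (15.3 and 24.5 points) and Sε (17.0 and 20.9 points) held too. That of other IgH also held (35.8 and 45.9 points, adjusted p = 0.00024 and 0.00949 by Fisher's exact test). In the pool less both, 4 of 16 non-IgH junctions (25%) were direct, not below 23.2% in Sμ and 23.5% in Sγ1. All 16 lay on chromosome 12, and these values were not tested.

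Long MH was the second mark of non-IgH preys. MH of 4 bp or more made up 33.6% of them in replicate 1 and 26.0% in replicate 2. In the pool less both it made up 2 of 16 (12.5%), beside 5.56% in Sμ and 11.8% in Sγ1. The Sε minus non-IgH difference was -26.8 points (adjusted p = 1.82e-13) and -16.3 points (adjusted p = 0.00217 by Fisher's exact test) in replicates 1 and 2. Among MH junctions, 41 of 79 (51.9%) in replicate 1 and 32 of 50 (64.0%) in replicate 2 were long. MH of 10 bp or more made up 11.5% and 10.6% of all non-IgH junctions, a length class at or below 0.735% in each S region of either replicate. The contrasts of Sμ and Sγ1 with non-IgH held in both long MH measures, and no long MH contrast differed between the replicates. The calls changed with the length from which MH was counted as long. Counted from 2 bp, none of the 3 held in the share of all junctions. The mean differences from non-IgH were -4.93 points for Sμ, -4.56 points for Sγ1 and -8.55 points for Sε. The Sμ mean joins opposite directions, with non-IgH higher in replicate 1 and Sμ higher in replicate 2. Among MH junctions alone, those of Sμ and Sε still held from 2 bp and that of Sγ1 did not.

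The overall MH share of non-IgH preys did not hold as a contrast. It was 64.8% in replicate 1 and 40.7% in replicate 2. The Sμ minus non-IgH difference was -4.93 points (adjusted p = 0.582) in replicate 1 and 24.1 points (adjusted p = 0.000884) in replicate 2, and these contrasts differed between replicates (adjusted p = 0.00763, Zelen's exact test). The Sε contrast did the same (-4.17 and 23.2 points). The direction changed with the junctions counted. Over junctions without insertion, all 4 contrasts with non-IgH held with non-IgH higher, at a mean Sμ minus non-IgH difference of -19.2 points. Each such junction is either direct or MH, so these 4 are the direct contrasts over the same junctions with the sign turned. Over listed lines that give a read length, a subset added after seeing the data, 86.0% and 85.2% of non-IgH junctions had MH in replicates 1 and 2. There the Sγ1 minus non-IgH difference was -21.9 and -24.1 points and the Sε one -25.2 and -21.3 points, and both held. Of the non-IgH lines left out, 24 of 29 and 41 of 45 had an insertion, and leaving out insertions by itself raises the MH share. Few Sγ1 and Sε lines were left out, at 20 of 1059 and 0 of 221. Of 60 contrasts, 6 differed between the replicates, and all 6 involved non-IgH.

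Insertions were the third mark, and the one that rested on a subset of reads. The insertion share of non-IgH preys was 27.0% in replicate 1 and 55.3% in replicate 2. The Sε minus non-IgH difference was -12.8 points (adjusted p = 0.0028) and -44.2 points (adjusted p = 1.23e-13), and its size differed between replicates (adjusted p = 0.00555, Zelen's exact test). Insertions of 5 bp or more made up 26 of 33 non-IgH insertions in replicate 1 and 60 of 68 in replicate 2. Of those in replicate 2, 20 were 21 to 30 bp long. The insertion share of non-IgH in the pool less both was 7 of 16 (43.8%), beside 19.2% in Sμ and 13.1% in Sγ1. In the lists, 34.8% of non-IgH preys in replicate 1 and 51.5% in replicate 2 had fewer than 50 aligned bases. In Sγ1 and Sε such short preys were 10.8% to 18.2%, and in Sμ of replicate 2 they were 30 of 122 (24.6%).

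Some lines of the lists give no read length. They were 29 of 115 non-IgH lines in replicate 1 and 45 of 99 in replicate 2, but 20 of 1059 Sγ1 and Sε lines of replicate 1 and 0 of 221 of replicate 2. Of the non-IgH lines without a read length, 24 of 29 (82.8%) and 41 of 45 (91.1%) had an insertion, with a median aligned prey of 31.0 bp in both replicates. Of those with a read length, 5 of 86 (5.81%) and 4 of 54 (7.41%) had an insertion, with median preys of 110.5 and 103.0 bp. A further 24 non-IgH lines of replicate 2, 23 of them insertions by the count sheet, and 7 of replicate 1, 4 of them insertions, were not used here.

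Over preys with 50 or more aligned bases, the insertion share of non-IgH was 8.00% in replicate 1 and 18.8% in replicate 2, and the Sγ1 and Sε contrasts passed in neither replicate. In replicate 1 the Sγ1 and Sε minus non-IgH differences turned to 4.97 and 6.49 points, and in replicate 2 they were -6.05 and -7.73 points. Over lines with a read length, non-IgH insertions were fewer than in Sε by 7.83 points in replicate 1 and 3.7 points in replicate 2, the opposite direction, without passing. The direct and long MH contrasts of Sγ1 and Sε with non-IgH held in both subsets. Non-IgH insertions were fewer in both subsets than over all junctions, and leaving out insertions by itself raises the long MH share. For the long MH share of all junctions the subsets are thus no separate check. Among MH junctions alone, which hold no insertions, the long MH contrasts of Sγ1 and Sε with non-IgH also held in both subsets. In lines with a read length, long MH made up 43.0% and 57.4% of non-IgH junctions in replicates 1 and 2. For Sμ only replicate 2 had a list. There 13 of 120 Sμ lines with a read length (10.8%) had an insertion and 11.7% had long MH, beside 7.41% and 57.4% in non-IgH, with no test.

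**Figure D5:**
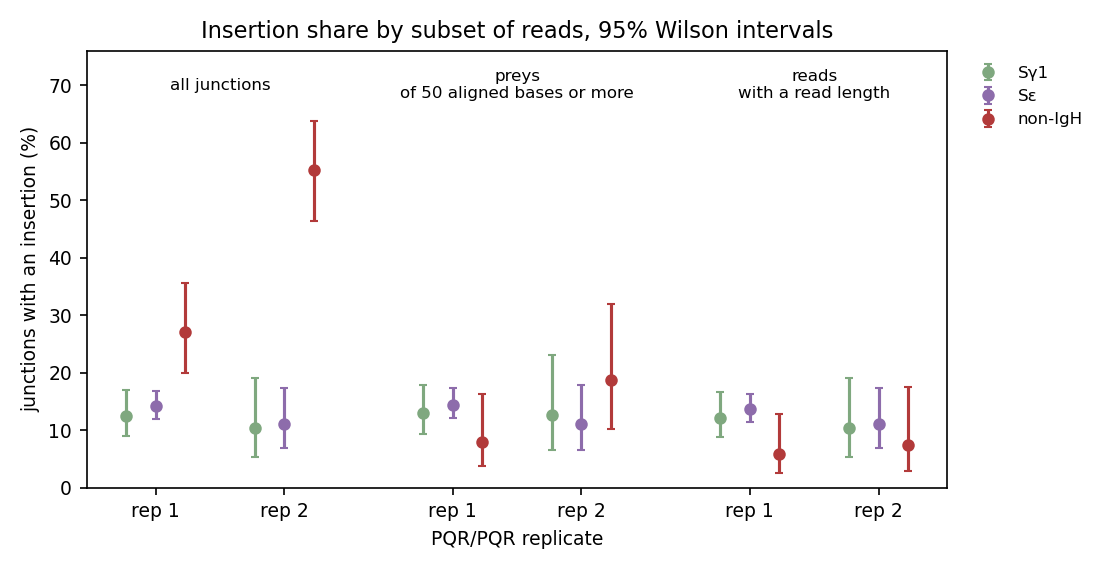
Points give the share of junctions with an insertion (y axis, %) in Sγ1, Sε and non-IgH for PQR/PQR replicates 1 and 2 (x axis), over all junctions and over 2 subsets of listed reads, with Wilson 95% intervals. Non-IgH lies above Sγ1 and Sε over all junctions and at 5.81% and 7.41% over reads with a read length.

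The + strand share of non-IgH preys, which outside chromosome 12 says only how the prey lies on its own chromosome, was 68 of 115 listed junctions (59.1%) in replicate 1 and 43 of 99 (43.4%) in replicate 2. The intervals were 50% to 67.7% and 34.1% to 53.3%. The Sγ1 and Sε contrasts with non-IgH passed the rule, at -49.6 and -26.6 points for Sγ1 and -54.5 and -35.8 points for Sε. Only 14 of 122 and 8 of 123 non-IgH junctions were on chromosome 12 in replicates 1 and 2. These contrasts therefore set inversion within the locus mostly against strand on other chromosomes, and do not compare inversion. The Sμ contrast was -40.5 points in replicate 1 and -6.55 points in replicate 2, where it did not pass (adjusted p = 0.577), and it differed between replicates (adjusted p = 0.000835, Zelen's exact test).

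The S region contrasts were set against those of DNA-PKcs-/- replicate 5. The question was whether close shares of the S regions recur in cells without the kinase. The Sμ minus Sε difference in direct joins was 1.95 and -0.410 points in PQR/PQR replicates 1 and 2, and -15.3 points (interval -24.1 to -7.55) in DNA-PKcs-/- replicate 5. In DNA-PKcs-/- replicate 5, direct joins were 9.06% in Sμ, 13.3% in Sγ1 and 24.4% in Sε. The odds ratios differed from replicate 1 (adjusted p = 0.00332) but not past the threshold from replicate 2 (adjusted p = 0.0797, Zelen's exact test over 36 tests).

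The Sμ minus Sε difference in insertions moved likewise, at -1.20 and -0.455 points in PQR/PQR and 13.1 points in DNA-PKcs-/-, with adjusted p = 0.0132 and 0.163 by Zelen's exact test. In orientation the order Sμ, Sγ1, Sε was also found in DNA-PKcs-/-, with Sμ minus Sε at 13.9 and 29.2 points in PQR/PQR and 34.8 points in DNA-PKcs-/- (adjusted p = 0.237 and 0.861, Zelen's exact test). None of the 18 S region contrasts differed between genotypes against both PQR/PQR replicates. With 1 DNA-PKcs-/- library, such a difference has no replicate check.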

How the data were processed

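Junctions were mapped by high-throughput genome-wide translocation sequencing from a bait primer in 5′ Sμ, with AflII digestion and a MiSeq per the labels' protocols, and with Bowtie2 and mm9 per the submitters' processing notes. How junctions were called and filtered is not given in the sources used here. Counts are whole numbers of junctions per region, strand and gap length in the authors' deposited sheets, not normalized. The other deposited values are mm9 positions and alignment bounds of single junctions. The gap between bait and prey alignments in the read gave the class, negative for MH, 0 for direct and positive for insertion, and the lists gave the same classes as the count sheets apart from lines not used here. Depth was 1681 and 472 junctions in PQR/PQR replicates 1 and 2 and 842 in DNA-PKcs-/- replicate 5.

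Shares have Wilson and differences Newcombe 95% intervals. A count of 0 allows 3 counts of the total. Intervals cover counting error only, as reads had no molecular identifiers. Fisher's, Zelen's and stratified exact tests were run two-sided in Python 3.11.15 with SciPy 1.17.1 and checked on simulated data. The strand of non-IgH preys came from the lists. The non-IgH strand share, prey sequences and subsets by prey length therefore cover listed lines only.

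All 5 regions and 10 contrasts are named, with the longest MH junction and the most frequent MH string of at least 4 bases per S region. The members, lists and tests were chosen with earlier results of these data known. The comparison of inverted with deletional junctions, and the subset by read length, were added after seeing the data. Alternatives changed the replicates used, the adjustment, the strand, the MH length, the denominator, repeated junctions and prey length.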

Additional observations from a re-analysis of the deposited data

How the results depend on the processing

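Of the 10 contrasts per share, the direct (4), long MH (3), long MH among MH (3) and insertion (3) counts kept within 1.5 times of their value under most alternatives. Called from 1 replicate, the count for MH was 3 without replicate 1 and 0 without replicate 2, and that for the inverted share was 4 without replicate 1 and 7 without replicate 2, against 0 and 4 in both replicates. The exact test stratified by replicate gave 8 for the inverted share. In the pool less both alone, 0 of 6 IgH contrasts passed for the inverted share, where 2 of those 6 held in the replicates. Of those 2, Sμ minus Sε (3.32 points there) rests on the 21 Sε junctions mostly not joined to the primer's end. That contrast is thus no check on the replicates. Nor is Sμ minus Sγ1 there, since the pool less both was not a further library of the same make. The non-IgH contrasts of the pool less both were not run, since these preys are all on chromosome 12. With MH of 2 bp or more as long, 0 long MH contrasts held. With junctions without insertion as denominator, 4 MH contrasts held, all with non-IgH higher. These are the direct contrasts over those junctions with the sign turned. From the lists, without Sμ, 0 of 6 insertion contrasts held over preys of 50 bases or more, where 2 held over all junctions. Over reads with a read length, an alternative added after seeing the data, 0 insertion and 3 MH contrasts held, those for MH with non-IgH higher. There the mean insertion difference from non-IgH turned to 4.69 points for Sγ1 and 5.77 points for Sε, with adjusted p of 0.212 and 0.0919 in replicate 1 and 0.853 and 0.732 in replicate 2; the non-IgH lines left out were mostly insertions. The cause of the other changes was not tested. Over all alternatives, 118 of 128 values of contrasts that held kept direction and call, 8 lost the call and 2 turned. The 8 include the inverted Sμ minus Sε contrast of the pool less both. Adjustment within the S region contrasts alone, the sheet of large insertions and collapsed repeats changed no count past 1.5 times. No paired analysis was possible because the genotypes share no replicate number, and each region contrast is already made within a library. Depth limits replicate 2 most, with 77 Sγ1 and 6 other IgH junctions.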
